A study of Mus musculus with 6 samples.

Results

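The genes described here are 39 genes of the cell cycle and of DNA replication, taken by symbol from a table of 32219 mouse genes, in which all 39 were found. They code for licensing factors and the replicative helicase (9 genes), proteins of the replication fork (2), enzymes that supply nucleotides (4), G1 cyclins with their kinases and E2F1 (7), mitotic cyclins, kinases and FoxM1 (8), spindle checkpoint proteins (3) and proteins of chromosomes, kinetochores and the spindle (6). The table holds 6 libraries of poly(A)-selected RNA from mouse intestine, 3 labelled KO and 3 labelled WT. The labels do not name the deleted gene; the series title speaks of GPR41, encoded by Ffar3, and of DHX9. Dhx9 was at 6.17 in KO 2 and 6.08 in KO 3, against 5.94, 6.01 and 5.97 in WT 1, WT 2 and WT 3, and at 6.03 in KO 1 on the rescaled values explained below. Ffar3 was near 0 throughout, at 0.35 in KO 2 and 0.59 in KO 3, against 0.60, 0.18 and 0.46 in WT 1, WT 2 and WT 3. Neither gene stood below all WT libraries in KO 2 and KO 3. Ffar3 was too near 0 in WT for a loss to show, and no label says that Dhx9 was deleted. These values therefore cannot tell whether the label holds, and KO is used here as the label only. Nothing in the sources used here gives the promoter or cell type behind the deletion, the strain, sex and age of the mice, or whether each library came from its own animal. The p-values therefore rest on a spread between libraries that may be technical.

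The values are log values, read here as log2(abundance + 1); base 2 is an assumption, since neither the base nor the abundance unit is stated, and sequencing depth is unknown. KO 1 has values on chromosomes 1 and 10 to 18 and at the start of chromosome 19 only. It covers 15 of the 39 genes, and the other 24, all listed at 0 there, were treated as missing. Where KO 1 has values its linear scale ran 2.12 times above the other libraries, so its values are given after division by that factor and are called rescaled. The main comparison therefore set KO 2 and KO 3 against WT 1, WT 2 and WT 3. The design text names the duodenum, next to the stomach. Fabp6, which binds bile acids in the ileum, was at 8.71 in KO 2, 8.73 in KO 3 and 8.16 to 8.76 in WT, and Gata4, a factor of the proximal intestine, at 0.54 in KO 2, 0.50 in KO 3 and 0.43 to 0.63 in WT. KO 1 had the reverse pattern, with Fabp6 at 3.91 and Gata4 at 5.19 after rescaling, so the duodenal label fits KO 1 but not the other 5 libraries by these markers. The labels also list epithelial, immune and enteric nerve cells, and no marker of these in the table was at 0 in all 5 libraries.

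Intestinal epithelium is renewed by stem cells and transit-amplifying cells that divide in the crypts, while villus cells have left the cycle. In G1, cyclin D with CDK4 and cyclin E with CDK2 release E2F factors from the retinoblastoma protein, and E2F switches on the genes of DNA replication. CDC6 and CDT1 load the MCM2-7 helicase on origins, the GINS complex helps to activate it, and cyclin A and cyclin B with CDK1 then drive mitosis, whose genes are switched on later by the MuvB complex with B-Myb and FoxM1. In whole tissue, fewer dividing cells and less RNA per dividing cell cannot be told apart.

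RefSeq start windows on GRCm38.p6, of 250 bases before the transcription start and 50 bases from it on, were at hand for 31 of the 39 genes. They were searched on both strands for the E2F site (TTTCCCGC, TTTGGCGC, TTTCGCGC or TTTGCCGC), for the cell cycle genes homology region, CHR, bound by MuvB (TTTGAA, and the variant TTTAAA), and for the CCAAT box bound by NF-Y (CCAAT). The motif letters were chosen from textbook forms, and neighbouring matches can overlap. An E2F site lay in the windows of 6 of 7 licensing and helicase genes with a window (Mcm3, Mcm5, Mcm6, Mcm7, Cdc6 and Cdt1), in Cdk2 and in Cdk1, against 2.26% of all 32851 windows. No E2F match lay in the 4 nucleotide supply genes or the 2 fork genes. Of the genes with a window, a CHR of either form lay in 5 of 5 mitotic cyclin and kinase genes and 6 of 6 chromosome and spindle genes. It lay in 2 of 7 licensing, 1 of 2 fork, 2 of 4 nucleotide supply, 1 of 4 G1 and 2 of 3 checkpoint genes, against 27.6% of all windows. A CCAAT box lay in 22 of the 31 genes, against 37.4% of all windows. By role, it was in 5 of 7 licensing, 5 of 5 mitotic and 5 of 6 chromosome and spindle genes. Both a CHR form and a CCAAT box were found in 15 of the 31 genes, against 10.7% of all windows. These matches are descriptions of letters, not of bound sites.

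The stretches below were chosen because they carry E2F, CCAAT or CHR matches. Capitals mark the motif matches, and each reads 5′ to 3′ along its gene. They are Mcm6 (chr1:128359706-128359825), Cdk1 (chr10:69352913-69353052), Ccnb1 (chr13:100786487-100786606), Ccnb2 (chr9:70421545-70421649), Cdc20 (chr4:118437344-118437413) and Mki67 (chr7:135716464-135716574), all on the minus strand of GRCm38.p6, from RefSeq.
Mcm6: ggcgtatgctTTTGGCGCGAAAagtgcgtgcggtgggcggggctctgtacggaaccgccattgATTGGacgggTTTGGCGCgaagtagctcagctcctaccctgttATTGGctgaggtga
Cdk1: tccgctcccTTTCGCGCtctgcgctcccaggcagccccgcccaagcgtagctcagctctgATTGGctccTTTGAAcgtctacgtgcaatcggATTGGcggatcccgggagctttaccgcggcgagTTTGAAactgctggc
Ccnb1: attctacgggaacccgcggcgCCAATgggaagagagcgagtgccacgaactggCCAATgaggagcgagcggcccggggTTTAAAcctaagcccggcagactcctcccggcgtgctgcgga
Ccnb2: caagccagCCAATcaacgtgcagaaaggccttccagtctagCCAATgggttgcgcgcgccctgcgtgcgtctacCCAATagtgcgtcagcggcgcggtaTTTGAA
Cdc20: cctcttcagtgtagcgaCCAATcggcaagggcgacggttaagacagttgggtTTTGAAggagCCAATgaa
Mki67: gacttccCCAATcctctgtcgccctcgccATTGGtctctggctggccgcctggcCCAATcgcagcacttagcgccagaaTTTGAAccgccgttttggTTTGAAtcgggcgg

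In Mcm6, an E2F match starts 110 bases before the start and runs into a second one on the opposite strand, and one more starts 47 bases before it. Cdk1, the mitotic kinase, holds an E2F match and the TTTGAA form together; Mcm5 holds E2F matches with the TTTAAA form, and no other of the 31 genes has both kinds. In Ccnb2 the 3 CCAAT boxes stand 33 bases apart, first base to first base, and a CHR follows 25 bases after the last. Another CHR of Ccnb2, outside the stretch shown, starts 167 bases before the start, upstream of all 3 boxes. Neighbouring CCAAT boxes stand 32 bases apart in Ccnb1, in Aurka and in one pair of Cdk1; over all the genes with more than 1 box, the distance ran from 20 to 128 bases. The CHR form follows the nearest CCAAT box upstream of it by 25 bases in Ccnb1 and, for the nearer CHR, in Mki67, and by 26 bases in Kif11 and Cenpe. CHR forms upstream of every box in their window, found in Ccnb2, Plk1, Cenpf and Mcm5, have no such distance and are left out. Other distances differed, with 9 and 33 bases in Cdk1, 35 in Cdc20, 36 and 51 in Aurka, 10 and 35 in Top2a, 44 in Plk1, 50 in Rrm2, 73 in Cenpf, 105 in Mcm2 and 153 in Bub1b.

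**Figure D1:**
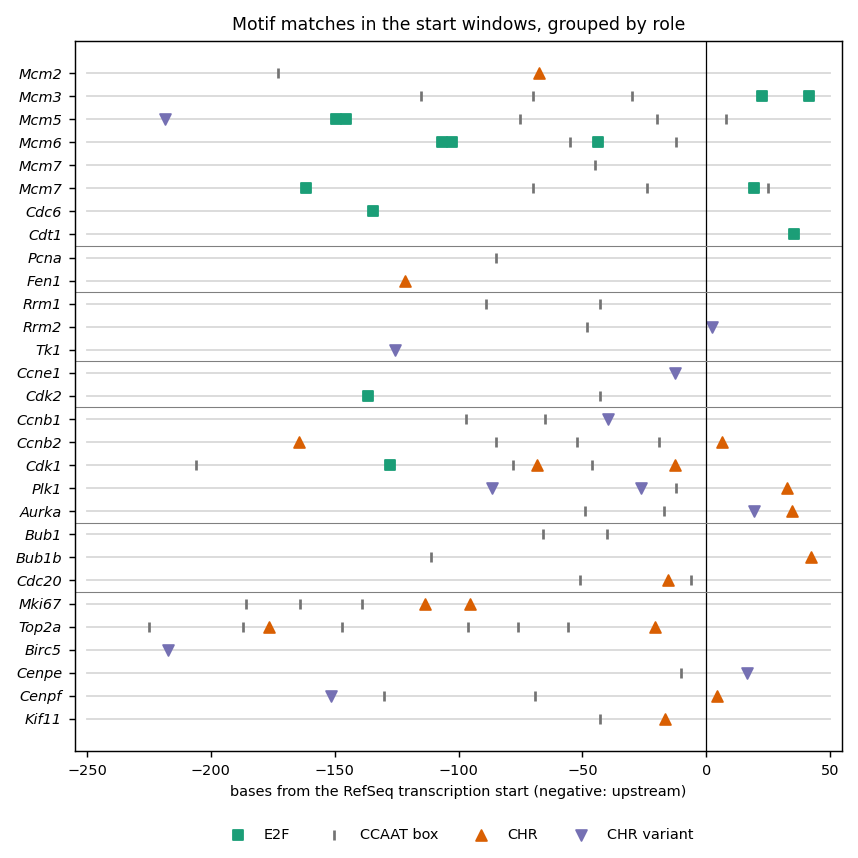
Motif matches in the RefSeq start windows of the genes with at least 1 match, 1 row per window, grouped by role from licensing (top) to chromosome and spindle genes (bottom); the x axis gives bases from the transcription start, and symbols mark E2F, CCAAT box, CHR and CHR variant matches. Among genes with a window, E2F matches lie in 6 of 7 licensing genes and in 0 of 4 nucleotide supply genes. CHR forms lie in 5 of 5 mitotic cyclin and kinase genes, 6 of 6 chromosome and spindle genes and 2 of 4 nucleotide supply genes.

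As with almost every gene tested, none of the 39 cell cycle and replication genes passed the test between KO and WT intestine. All were above 0 in the 5 libraries of the main comparison and all were tested, in a limma fit over 22178 genes with Benjamini-Hochberg adjustment. That fit called 1 gene in all (0.00451% of those tested), none of them from the list, where the adjusted p was 0.99998 for every gene. At an unadjusted p under 0.05 it had 0 of the 39 genes, against 2.23% of genes tested, and the smallest unadjusted p was 0.121. The log2 folds ran from -0.09 to 0.18, with a median of 0.05, against a median of 0.03 over all genes tested. Their 95% intervals reached no lower than -0.58 and no higher than 0.56, and all 39 spanned 0.

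KO 2 and KO 3 both stood above all WT libraries in 4 genes, Mcm7, Tk1, E2f1 and Ccnb2, which is 10.3% of the list, against 9.83% of genes tested. They stood below all WT libraries in 0 genes, against 3.75%. In the other 35 genes the groups overlapped. In size, the fold was smaller than the range of the 3 WT libraries in 37 of 39 genes, and smaller than the gap between KO 2 and KO 3 in 28. These 2 counts were not made over all genes tested, so they are not read as a trait of the list. Of the 39 genes, 29 had a positive fold and 10 a negative one, so 74.4% were higher in KO, against 61.0% of genes tested. That count was 19 without WT 1 and 18 without KO 2, so the direction is not stable. With each library centred on its median it was 16, but centring shifts all genes. The median log2 fold was then -0.0083 over the 39 genes and -0.03 over all genes. The share of all genes higher in KO is not given for these settings. Exons of Ccna2, Cdc20, Ccne2, Mcm7, Ccnd2, Plk1, Ccnd1, Gins2, Cdk2, Cdk4, Tk1 and Fen1 overlap exons of a gene on the opposite strand, and whether the counting used the strand is not given in the sources used here. On the same strand, exons of Mcm7 overlap Mir25 and Mir93, those of Foxm1 overlap Tex52 and Gm44596, and those of Top2a overlap Gm23451. Ccnb1, Ccnb2, Tyms and Pcna have annotated pseudogenes with which they could share reads.

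**Figure D2:**
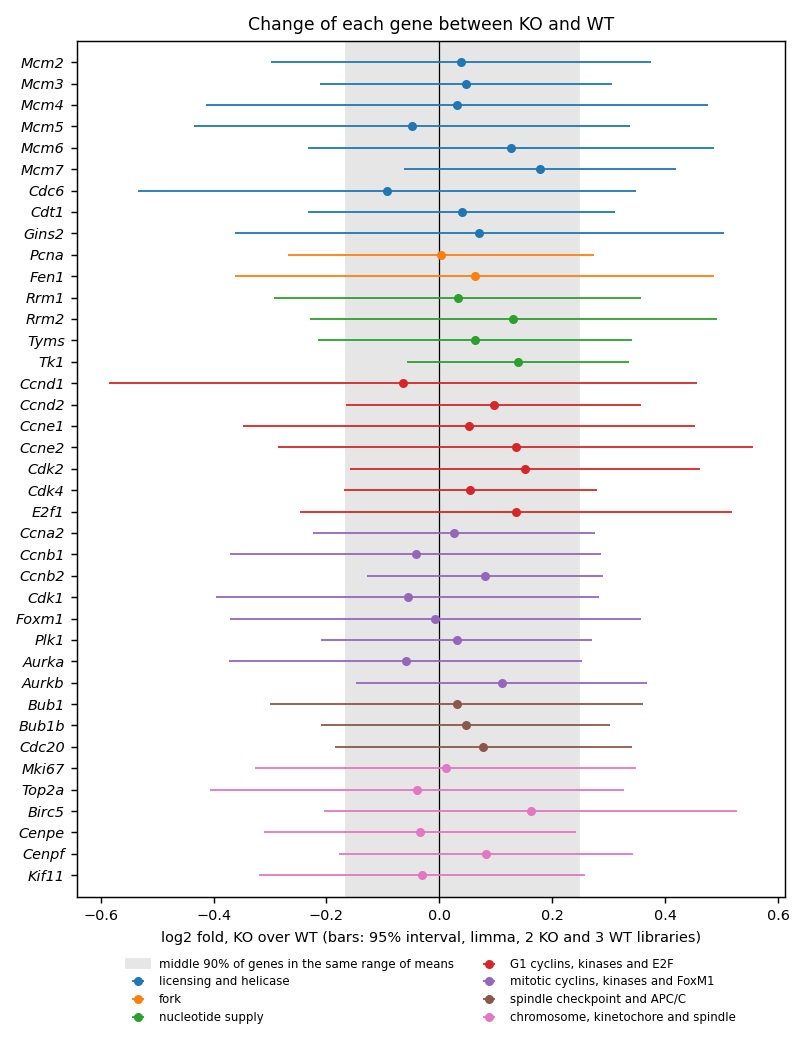
Log2 fold of KO over WT for each of the 39 genes on the x axis, coloured by role, with bars for the 95% interval from limma (2 KO and 3 WT libraries). The grey band spans the 5th to 95th percentile of the folds of 10580 tested genes in the same range of means, from -0.17 to 0.25; all 39 points lie inside it and all bars cross 0.

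Among the licensing genes and the helicase, 7 of 9 folds were positive, with a median of 0.04. Mcm7 (chromosome 5, 138164583 to 138172422), a subunit of the MCM2-7 ring, had the largest fold of the 39, with levels of 4.02 in KO 2 and 4.09 in KO 3, against 3.77, 3.94 and 3.93 in WT 1, WT 2 and WT 3. KO stood above WT in this subunit with no overlap, and the log2 fold was 0.18 ± 0.10 (SE), unadjusted p = 0.121 by limma. Exons annotated for Mcm7, in any of its transcripts, overlap those of Cops6 and Ap4m1 on the opposite strand. They also overlap Mir25 and Mir93 on the same strand.

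The other subunits of the ring did not separate the groups. Mcm2 stood at 3.55 in KO 2 and 3.52 in KO 3, against 3.27, 3.60 and 3.62 in WT 1, WT 2 and WT 3. Mcm4 stood at 3.96 in KO 2 and 3.65 in KO 3, against 3.48, 4.01 and 3.83 in WT 1, WT 2 and WT 3. In both, WT 1 was lowest, and the KO libraries lay inside the WT range.

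Mcm5 stood at 3.91 in KO 2 and 3.71 in KO 3, against 3.61, 4.07 and 3.90 in WT 1, WT 2 and WT 3, with WT 2 highest and WT 1 lowest. Mcm6 stood at 4.53 in KO 2 and 4.31 in KO 3, against 4.05, 4.42 and 4.42 in WT 1, WT 2 and WT 3, with KO 2 highest and WT 1 lowest. Mcm3 stood at 4.14 in KO 2 and 3.92 in KO 3, against 3.94, 4.06 and 3.96 in WT 1, WT 2 and WT 3, and its groups overlapped. The log2 folds of these 5 subunits ran from -0.05 for Mcm5 to 0.13 for Mcm6.

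The loading factors did not separate the groups either. Cdc6 had the lowest fold of the list, -0.09 ± 0.18 (SE), at 1.94 in KO 2 and 1.84 in KO 3, against 1.82, 1.91 and 2.22 in WT 1, WT 2 and WT 3. Both KO values lay inside the WT range, and WT 3 was the highest library. Cdt1 stood at 3.33 in KO 2 and 3.54 in KO 3, against 3.34, 3.43 and 3.42 in WT 1, WT 2 and WT 3, with KO 3 highest, KO 2 lowest and a log2 fold of 0.04 ± 0.11 (SE). Gins2, a subunit of the GINS complex, stood at 2.72 in KO 2 and 2.49 in KO 3, against 2.76, 2.33 and 2.50 in WT 1, WT 2 and WT 3; it was the one gene of the list highest in WT 1.

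At the fork, Pcna, the sliding clamp, stood at 5.23 in KO 2 and 5.04 in KO 3, against 5.0, 5.15 and 5.25 in WT 1, WT 2 and WT 3. Fen1, the flap endonuclease that trims Okazaki fragments, stood at 3.51 in KO 2 and 3.24 in KO 3, against 3.05, 3.37 and 3.52 in WT 1, WT 2 and WT 3. In both, WT 1 was lowest, WT 3 highest, and the KO libraries lay between them, with log2 folds of 0.0027 for Pcna and 0.06 for Fen1.

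All 4 genes of nucleotide supply had positive folds, with a median of 0.10. Tk1, cytosolic thymidine kinase (chromosome 11, 117815526 to 117826092), stood at 4.77 in KO 2 and 4.79 in KO 3, against 4.58, 4.70 and 4.64 in WT 1, WT 2 and WT 3. Its KO values did not overlap WT, and the log2 fold was 0.14 ± 0.08 (SE) (unadjusted p = 0.133 by limma). Rrm2, the small subunit of ribonucleotide reductase, stood at 3.67 in KO 2 and 3.82 in KO 3, against 3.40, 3.60 and 3.83 in WT 1, WT 2 and WT 3, where WT 3 was highest and WT 1 lowest. Rrm1, the large subunit, and Tyms, thymidylate synthase, had log2 folds of 0.03 and 0.06, and both had WT 3 highest and WT 1 lowest.

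Among the G1 genes, Ccnd1, cyclin D1 (chromosome 7, 144929931 to 144939925), had the widest spread of the list, at 5.77 in KO 2 and 5.13 in KO 3, against 5.39, 5.40 and 5.75 in WT 1, WT 2 and WT 3. KO 2 was the highest library and KO 3 the lowest, so the 2 KO libraries bracketed WT, with a log2 fold of -0.06 ± 0.21 (SE). Ccnd2, cyclin D2, had KO 3 highest, at 5.93 in KO 2 and 6.18 in KO 3, against 5.90, 5.95 and 6.04 in WT 1, WT 2 and WT 3. The order of KO 2 and KO 3 was thus reversed between these D cyclins.

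E2f1 (chromosome 2, 154559407 to 154569892), the activator of S phase genes, stood at 2.15 in KO 2 and 2.22 in KO 3, against 1.89, 2.14 and 2.13 in WT 1, WT 2 and WT 3. KO lay above WT without overlap, KO 2 only just above WT 2, and the log2 fold was 0.14 ± 0.16 (SE). Cdk2 stood at 4.02 in KO 2 and 3.76 in KO 3, against 3.64, 3.88 and 3.68 in WT 1, WT 2 and WT 3, with KO 2 highest and WT 2 between the KO libraries. Cdk4 stood at 5.32 in KO 2 and 5.31 in KO 3, against 5.16, 5.37 and 5.26 in WT 1, WT 2 and WT 3, inside a WT range that held both KO values. The E cyclins had log2 folds of 0.05 for Ccne1 and 0.14 for Ccne2, with KO 2 highest and WT 1 lowest in both.

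The mitotic cyclins, kinases and FoxM1 divided evenly, with 4 positive and 4 negative folds and a median of 0.01. Ccnb2, cyclin B2 (chromosome 9, 70407692 to 70421547), stood at 4.60 in KO 2 and 4.58 in KO 3, against 4.42, 4.56 and 4.55 in WT 1, WT 2 and WT 3, the one gene here without overlap (log2 fold 0.08 ± 0.09 (SE)). KO 3 was only just above WT 2. Ccnb1, cyclin B1, stood at 4.58 in KO 2 and 4.24 in KO 3, against 4.32, 4.56 and 4.49 in WT 1, WT 2 and WT 3, with KO 2 highest and KO 3 lowest.

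Cdk1, the partner of both cyclins, stood at 3.32 in KO 2 and 3.12 in KO 3, against 3.13, 3.26 and 3.45 in WT 1, WT 2 and WT 3. Foxm1, the mitotic transcription factor, stood at 3.51 in KO 2 and 3.68 in KO 3, against 3.37, 3.79 and 3.64 in WT 1, WT 2 and WT 3. Neither separated the groups: KO 3 was lowest for Cdk1 and second highest for Foxm1. Ccna2, Plk1, Aurka and Aurkb had log2 folds of 0.03, 0.03, -0.06 and 0.11, and the groups overlapped in each.

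The spindle checkpoint kinases Bub1 and Bub1b and the APC/C activator Cdc20 had log2 folds of 0.03, 0.05 and 0.08. KO 2 was highest for Bub1 and Bub1b, and WT 3 for Cdc20, while WT 1 was lowest in all 3.

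Of the chromosome, kinetochore and spindle genes, 3 folds were positive and 3 negative. Mki67, which encodes the Ki-67 proliferation marker (chromosome 7, 135689784 to 135716361), stood at 5.58 in KO 2 and 5.21 in KO 3, against 5.24, 5.44 and 5.48 in WT 1, WT 2 and WT 3. KO 3 was lowest and KO 2 highest, and the log2 fold was 0.01 ± 0.14 (SE), with a 95% interval from -0.33 to 0.35. Top2a, topoisomerase II alpha, stood at 5.96 in KO 2 and 5.53 in KO 3, against 5.66, 5.77 and 5.92 in WT 1, WT 2 and WT 3, again with KO 2 and KO 3 at the ends. Birc5, which encodes survivin, stood at 4.24 in KO 2 and 4.33 in KO 3, against 4.01, 3.96 and 4.40 in WT 1, WT 2 and WT 3 (log2 fold 0.16 ± 0.15 (SE)), with WT 3 highest and WT 2 lowest; without WT 3 its unadjusted p was 0.0271 by limma, with an adjusted p of 0.9998. The kinetochore genes Cenpe and Cenpf and the spindle motor Kif11 had log2 folds of -0.03, 0.08 and -0.03.

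**Figure D3:**
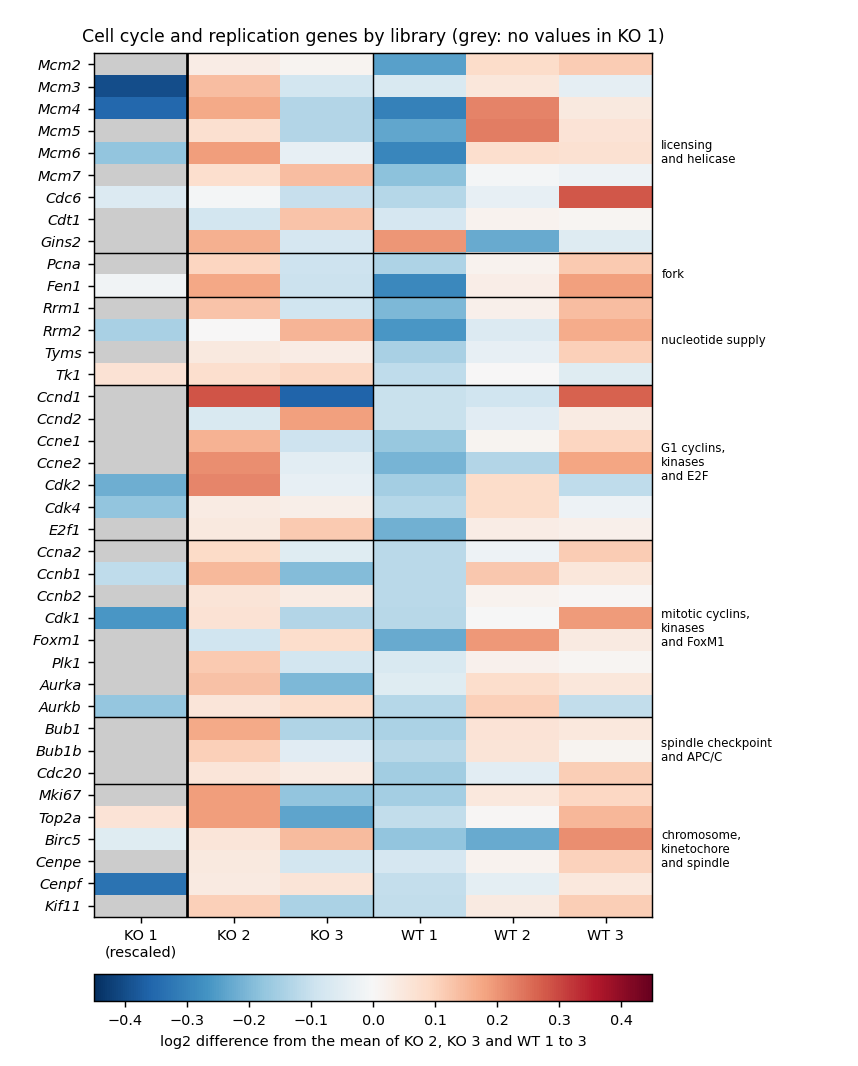
Log2 difference of each gene (rows, grouped by role) in each library (columns) from its mean over KO 2, KO 3 and WT 1 to 3, with KO 1 rescaled and grey where KO 1 has no values. WT 1 is the lowest of those 5 libraries in 26 rows, and KO 2 stands above KO 3 in 29.

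Over the 39 genes, the median of WT 3 minus WT 1 was 0.24 and that of KO 2 minus KO 3 was 0.19, against a median fold of 0.05. The same medians of single libraries were not made over all genes tested. WT 1 was the lowest of the 5 libraries in 26 of 39 genes (66.7%), against 24.2% of genes tested and 27.3% of the 10580 tested genes in the same range of means. WT 3, a library of the same group, was lowest in 0 genes and highest in 13, and it stood above WT 1 in 38 of 39. Over all genes tested, WT 3 was lowest in 26.8% and highest in 14.7%. KO 3 was lowest in 10 genes (25.6%), against 19.2% of genes tested, and KO 2 was highest in 14 (35.9%), against 22.7% of genes tested and 25.2% of those in the same range of means. KO 2 stood above KO 3 in 29 of the 39. Against the 5-library mean, the median over the 39 genes was 0.09 in KO 2 and -0.05 in KO 3, against -0.13 in WT 1, 0.02 in WT 2 and 0.06 in WT 3. The same medians over all genes tested lay between -0.03 and 0.02. WT 1 had the lowest median in every role group except the chromosome and spindle genes, where KO 3 and WT 1 were both at -0.11.

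Genes with an E2F match and no CHR (6 genes) had a median log2 fold of 0.09, those with a CHR form and no E2F match (17 genes) 0.05, and those with neither (6 genes) 0.04. WT 1 was the lowest library by the median in all 3 sets, at -0.14, -0.12 and -0.15 against the 5-library mean.

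Lymphoid and crypt markers were read beside these values, since B cells of lymphoid follicles and crypt cells both divide. The 12 markers of follicle and germinal centre B cells summed to 90.7 abundance units in KO 2 and 17.1 in KO 3, against 12.2, 53.8 and 12 in WT 1, WT 2 and WT 3. KO 2 and WT 2 were thus high in B cell RNA. Of the B cell markers, 10 of 12 were higher in KO (median log2 fold 0.94, 0 called), and 9 of 9 T cell markers were higher (median 0.39, 0 called), against 61.0% of genes tested. Summed T cell levels were 37.9 and 9.44 in KO 2 and KO 3 and 8.43 to 23.5 in WT. The 2 KO libraries differed: the median difference from the 5-library mean was 1.58 in KO 2 and -0.37 in KO 3 for B cell markers. For T cell markers it was 0.86 in KO 2 and -0.40 in KO 3. KO 2, highest in B and T cell markers, also had the highest median over the 39 genes, whereas WT 3, lowest in both lists, had the second highest. The part of lymphoid cells in the cell cycle values was not tested.

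The 13 crypt stem cell markers summed to 364 in KO 2 and 328 in KO 3, against 328, 357 and 305 in WT 1, WT 2 and WT 3. Of these, 10 were higher and 3 lower in KO, against 61.0% of genes tested with a positive fold, with a median log2 fold of 0.08 and 0 called. WT 3 was lowest for the stem cell markers but high for the cell cycle genes.

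**Figure D4:**
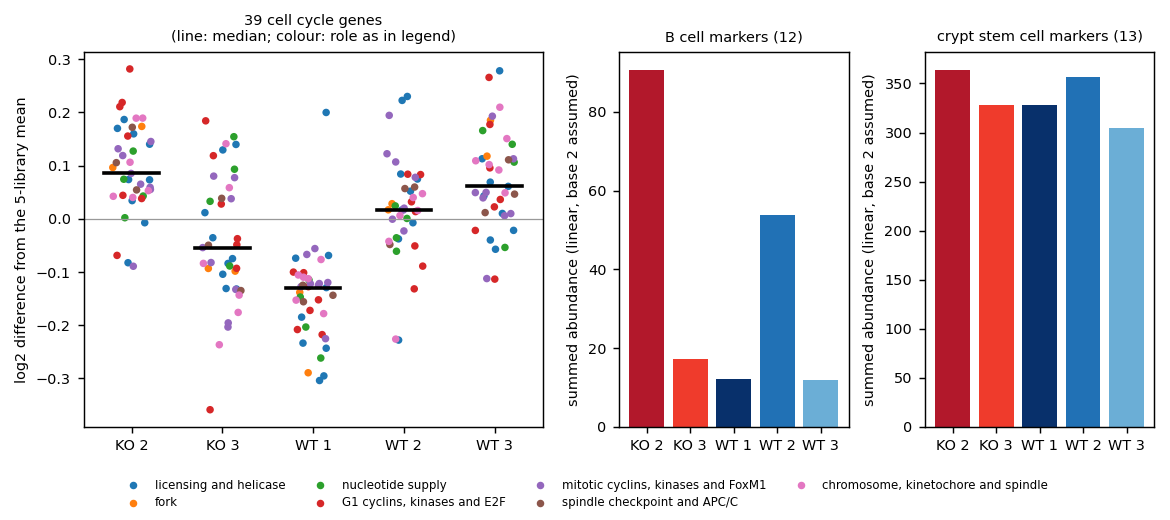
Left, log2 difference of each of the 39 genes from its 5-library mean, by library, with a line at the median and colour for the role; middle and right, summed linear abundance of 12 B cell markers and 13 crypt stem cell markers, by library. WT 1 has the lowest median, at -0.13, while the B cell sum is high in KO 2 (90.7) and WT 2 (53.8).

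Other genes of the same pathways were taken from 5 lists, and 0 of their genes passed by limma. Of 48 further replication genes, 40 were higher and 8 lower (median log2 fold 0.09), against 61.0% of all genes tested with a positive fold. KO lay above all WT libraries in 9 of them and below in 1, against 9.83% and 3.75% of genes tested. Without WT 1, 28 were higher, with a median of 0.04. Lig1, DNA ligase I, stood at 3.91 in both KO libraries, against 3.54, 3.80 and 3.64 in WT 1, WT 2 and WT 3 (log2 fold 0.25 ± 0.11 SE, unadjusted p = 0.062). Rfc2, a subunit of the clamp loader, stood at 3.81 and 3.83 in KO 2 and KO 3, against 3.52, 3.71 and 3.39 in WT (log2 fold 0.28 ± 0.12). In both genes KO lay above WT. Dtl and Rfc3 had log2 folds of 0.27 and 0.16, also without overlap.

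Of 58 further mitosis genes, 37 were higher and 21 lower (median 0.04), and without WT 1 the split was 29 higher with a median of 0.0021. The gene with the smallest p, Pttg1, which encodes securin, was lower in KO without overlap, at 3.64 in both KO 2 and KO 3, against 3.91, 3.77 and 3.82 in WT (log2 fold -0.20 ± 0.09). Nuf2, Hjurp and Ncapd2 had log2 folds of -0.21, 0.21 and 0.11. KO lay above all WT libraries in 5 of the 58 genes and below in 3, against 9.83% and 3.75% of genes tested.

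Among 7 CDK inhibitors, 6 were higher and 1 lower, and 1 had an unadjusted p under 0.05. That gene was Cdkn2a, the locus of p16 and p19ARF, at 0.57 and 0.62 in KO 2 and KO 3, against 0.20, 0.30 and 0.21 in WT 1, WT 2 and WT 3. KO lay above WT without overlap, with a log2 fold of 0.35 ± 0.06 (SE, unadjusted p = 0.0014 by limma), but its level was near 0 and it did not pass after adjustment. Its neighbour Cdkn2b, the locus of p15, was lower in KO without overlap, at 4.50 and 4.66 in KO 2 and KO 3, against 4.89, 4.70 and 4.69 in WT (log2 fold -0.17 ± 0.10). Cdkn1b and Cdkn1a, which encode p27 and p21, had log2 folds of 0.13 and 0.17. KO lay above all WT libraries in 2 of the 7 genes and below in 1, against 9.83% and 3.75% of genes tested.

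Of 20 E2F, pocket protein and MuvB factors, 15 were higher and 5 lower (median 0.08), against 61.0% of genes tested with a positive fold. In 5 of the 20, KO lay above all WT libraries, and in 2 below, against 9.83% and 3.75% of genes tested. Tfdp2 had a log2 fold of 0.22, E2f6 -0.20, Lin9 0.18 and E2f5 0.12. Of 27 genes of CDK activity and proteolysis, 16 were higher and 11 lower (median 0.04). Cdc25b, a phosphatase that activates CDK1, stood at 3.88 and 4.02 in KO 2 and KO 3, against 3.82, 3.73 and 3.72 in WT (log2 fold 0.20 ± 0.10). Pkmyt1, a kinase that inhibits CDK1, was at 3.32 and 3.27 in KO 2 and KO 3, against 3.07, 3.14 and 3.03 in WT (log2 fold 0.21 ± 0.11). Both lay above WT without overlap, although they act on CDK1 in opposite directions. Both were named for their small p. KO lay above all WT libraries in 4 of the 27 genes and below in 0, against 9.83% and 3.75% of genes tested. Wee1 and Cdc26 had log2 folds of 0.20 and -0.20.

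KO 1 holds values for 15 of the 39 genes. After rescaling it stood below all other 5 libraries in 7 (Mcm3, Mcm4, Cdk2, Cdk4, Cdk1, Aurkb and Cenpf), inside their range in 8, and above it in 0. The share below, 7 of 15, compares with 41.3% of 4787 covered genes in the same range of means. Mcm3 was at 3.60 in KO 1, against 3.92 to 4.14 in the other libraries, and Cenpf at 2.89 against 3.12 to 3.28. Tk1 was at 4.76 and Top2a at 5.83, each inside the range of the others. The median difference from the mean of the other 5 libraries was -0.18 over the 15 genes and -0.09 over those 4787.

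Fen1 lies at the edge of what KO 1 covers (chromosome 19, 10199132 to 10204169). It stood at 3.32 in KO 1 after rescaling, inside the range of 3.05 to 3.52 of the other libraries, whereas its neighbour Tmem258, the last gene with values, stood at 1.49 against 6.06 to 6.18. Kif11, further along chromosome 19, is among the 24 genes without values.

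With KO 1 rescaled in the fit, the log2 folds of the 15 genes ran from -0.13 for Cdk1 to 0.13 for Tk1, with 7 positive, against 11 positive without it. No adjusted p by limma was under 0.99994. KO 1 differs from the other libraries in cell markers too. Over the markers that it covers, its median difference from the mean of the others was -3.24 for 4 smooth muscle genes, -1.80 for 6 fibroblast genes, 0.70 for 4 enterocyte genes and -0.58 for 10 crypt stem cell genes. The part of gut segment or cell makeup in its cell cycle values was not tested.

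**Figure D5:**
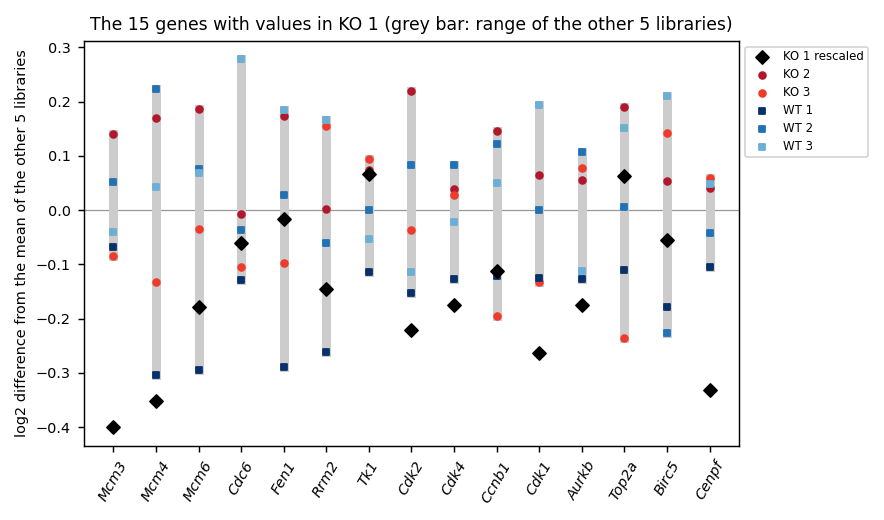
The 15 genes with values in KO 1: log2 difference of each library from the mean of KO 2, KO 3 and WT 1 to 3, with KO 1 rescaled (diamonds), KO 2 and KO 3 (circles), WT 1 to 3 (squares) and a grey bar for the range of those 5 libraries. KO 1 lies below the bar in 7 genes and above it in 0.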

How the data were processed

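Poly(A) RNA of mouse intestine was sequenced after a stranded low-input library kit, per the labels' protocols, and aligned to mm10, per the submitters' processing notes; the sources used here name no aligner, counter or normalization. The deposited table holds 1 log value per gene and library, taken as log2 of abundance plus 1. Depth is therefore unknown, and no counting interval is given. Of 32245 rows, 26 with a date in place of a symbol were left out. KO 1 was left out of the main fit because its values cover part of the genome; its scale factor, 2.12, is the median linear ratio over 2160 genes with a mean of at least 4 in the other libraries.

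Genes above 0 in at least 3 of 6 libraries (22178) were tested 2-sided with limma (version 3.58.1, run under R 4.3.3) and its variance trend, KO 2 and KO 3 against WT 1 to WT 3, with Benjamini-Hochberg adjustment and a threshold of 0.05. The fit was checked on simulated data. The alternatives were a replicate block, median centring, KO 1 added, other added constants, other filters, each library left out, no variance trend, all 6 libraries as deposited, an adjusted p under 0.1 and quantile normalization; the count of genes higher in KO was added as a result after seeing the data. All 39 genes are named, with the 4 genes of smallest p from each pathway list. The genes, the pathway lists and the marker lists were chosen with earlier results of these data known. Gene positions are GENCODE annotation on GRCm38, the assembly that mm10 names, and start windows are RefSeq on GRCm38.p6. Gata4, Fabp6, Dhx9, Ffar3 and Tmem258 were named after their values were seen. Values of some single marker genes are not reported here.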

Additional observations from a re-analysis of the deposited data

Results flagged for a closer look

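Tk1 in KO 1 stood at 4.76 after rescaling, in a library that the main comparison does not use. That is above all WT libraries, which ran from 4.58 to 4.70, and beside KO 2 and KO 3, at 4.77 and 4.79. No other of the 15 genes covered by KO 1 stood above all WT libraries there. In 7 of the 15, KO 1 stood below all other 5 libraries. The level of Tk1 rests on the division by 2.12, in a library whose gut markers differ from the others.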

How the results depend on the processing

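No alternative called any of the 39 genes. The 1 gene called in all became 0 with the replicate block, an added constant of 0.1, no filter, the stricter filter, all 6 libraries as deposited, and with each library left out (0 to 0); it was 1 in the others. Genes higher in KO numbered 29, but 19 with the replicate block, 16 with median centring, and 18 (without KO 2) to 36 (without WT 3) over the left-out libraries, with 19 without WT 1; the median log2 fold of the 39 ran from -0.04 (without KO 2) to 0.11 (without KO 3). Replicate numbers are shared by label only. The correlation of deviations was 0.28 for KO 2 with WT 2 and 0.33 for KO 3 with WT 3. It was -0.33 for KO 2 with WT 3 and -0.28 for KO 3 with WT 2. With 2 KO libraries these values mirror each other, so they are not separate evidence of pairing. The block leaves WT 1 with no partner, so its log2 folds equal those found without WT 1 and are not a separate setting. Log2 folds turned negative under the replicate block for Mcm2 -0.076, Mcm4 -0.11, Pcna -0.066, Fen1 -0.069, Rrm1 -0.063, Ccne1 -0.023, Ccna2 -0.029, Bub1 -0.035, Bub1b -0.0063 and Mki67 -0.063; under median centring, which moves the median of all genes to -0.03 from 0.03, for Mcm2 -0.017, Mcm3 -0.0080, Mcm4 -0.023, Cdt1 -0.016, Pcna -0.052, Rrm1 -0.023, Ccne1 -0.0029, Cdk4 -2.5e-05, Ccna2 -0.029, Plk1 -0.024, Bub1 -0.024, Bub1b -0.0083 and Mki67 -0.044; and with KO 1 rescaled and added for Mcm3 -0.096, Mcm4 -0.092, Cdk4 -0.015 and Cenpf -0.045. Over the left-out libraries the sign turned for Mcm2 (-0.076 to 0.10), Mcm3 (-0.065 to 0.16), Mcm4 (-0.12 to 0.18), Mcm5 (-0.17 to 0.057), Cdc6 (-0.18 to 0.028), Cdt1 (-0.067 to 0.15), Gins2 (-0.046 to 0.19), Pcna (-0.092 to 0.098), Fen1 (-0.073 to 0.20), Rrm1 (-0.076 to 0.14), Ccnd1 (-0.38 to 0.26), Ccnd2 (-0.030 to 0.22), Ccne1 (-0.072 to 0.18), Ccna2 (-0.044 to 0.096), Ccnb1 (-0.21 to 0.13), Cdk1 (-0.16 to 0.043), Foxm1 (-0.12 to 0.088), Plk1 (-0.070 to 0.13), Aurka (-0.23 to 0.11), Bub1 (-0.12 to 0.18), Bub1b (-0.031 to 0.12), Mki67 (-0.17 to 0.19), Top2a (-0.25 to 0.17), Cenpe (-0.097 to 0.029) and Kif11 (-0.16 to 0.094). The sign held in all of these settings and with the other constants and filters for 12 genes: Mcm6, Mcm7, Rrm2, Tyms, Tk1, Ccne2, Cdk2, E2f1, Ccnb2, Aurkb, Cdc20 and Birc5. The cause of these turns was not tested. Unknown depth and 5 libraries limit what could be detected.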

Other observations

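Markers of other cell types were measured in the same libraries, and 0 of their genes passed by limma. The 12 enterocyte markers summed to 1990 abundance units in KO 2 and 2750 in KO 3, against 2480, 1880 and 2160 in WT 1, WT 2 and WT 3, with 9 genes higher and 3 lower in KO. The Paneth cell markers, 6 of 7 in the table, summed to 1150 and 838 in KO 2 and KO 3, against 1120, 1150 and 922 in WT, with 1 higher and 5 lower. The 7 goblet cell markers summed to 4960 and 5340 in KO 2 and KO 3, against 5630, 4730 and 5450 in WT, with 1 higher and 6 lower. All 8 fibroblast markers were lower in KO (median log2 fold -0.21), with sums of 546 and 613 in KO 2 and KO 3, against 593, 782 and 655 in WT. WT 2 was the highest library for each of them. Its median difference from the 5-library mean was 0.39, against -0.09 in WT 1 and -0.02 in WT 3. In KO 2 and KO 3 that median was -0.10 and -0.11. The 8 smooth muscle markers had 4 higher and 4 lower, and the 12 markers of enteric neurons and glia had 5 higher and 7 lower, with sums of 25.4 and 36.9 in KO 2 and KO 3, against 27.4, 35.2 and 29.9 in WT.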
